A study of Rattus norvegicus with 54 samples.

Results

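The genes described here make and use phosphocreatine, the short-term energy reserve of excitable and heat-producing cells. They are 6 genes: Gatm and Gamt, which synthesise creatine, the creatine kinase genes Ckb, Ckm and Ckmt2, and Slc6a8, the creatine transporter. They were taken by symbol from the annotation of the array, which assigned 7 probe sets to them (Slc6a8 has 2), out of 10411 named genes and 15866 probe sets. The group was selected on these values: the adipose signal of Gatm was high in untreated obese rats and low again in rats given a ligand. All adipose values of these genes in those contrasts are therefore a description without a test. The study measured transcripts on 54 arrays of male Zucker rats, in epididymal adipose tissue, liver and gastrocnemius muscle, with 3 arrays for each of 6 groups in each tissue. Each array held RNA pooled from 2 rats, so a group stands for 6 rats. The 4 ligand groups were obese fatty (fa/fa) rats given pioglitazone, rosiglitazone or troglitazone, which are thiazolidinedione agonists of the nuclear receptor PPARgamma, or AG035029, a PPARgamma ligand known here only by its code name. They were set against untreated obese fatty (fa/fa) rats, labelled normal chow, and these in turn against lean (fa/+) rats, also labelled normal chow. The fa allele is a recessive mutation of the leptin receptor, so the lean rats carried 1 copy of it. The labels give no dose, treatment time or age.

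Creatine is made in steps. Gatm, a mitochondrial enzyme, joins the amidino group of arginine to glycine and yields guanidinoacetate and ornithine, and Gamt then methylates guanidinoacetate to creatine with S-adenosylmethionine. In mammals the first step is best known from kidney and pancreas and the second from liver, and creatine travels in blood to tissues that take it up through Slc6a8. Creatine kinases then move phosphate between ATP and creatine: Ckb is the brain-type cytosolic form, Ckm the cytosolic form of muscle fibres, and Ckmt2 the mitochondrial form of striated muscle. In fat tissue of mice, creatine cycling has been described as a route of energy use in adipocytes.

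The start-site regions of 4 of the genes are shown because these genes carry the patterns described next: Gatm and Ckb had their highest adipose group means in untreated obese rats, and Ckm and Ckmt2 had their highest signals in muscle. The sequences come from RefSeq (build GRCr8), where all 6 genes matched, run 5′ to 3′ and cover 250 bases before and 50 bases from 1 annotated start per gene. For Gatm the start used lies inside the gene, which is annotated from 130112508 to 130137664, so the window does not cover the outer end. The Ckm gene begins at 88189382, inside its window and ahead of the start used. Capitals mark matches, on either strand, to the letters TATAAA or TATATAA (forms of the TATA box), to CCAAT (the CCAAT box), to CAGCTG (a form of the E-box) and to AGGTCA (a half-site of nuclear receptors). The regions are chr3:130129044-130129343 (minus strand) for Gatm, chr6:136553415-136553714 (minus strand) for Ckb, chr1:88189211-88189510 (plus strand) for Ckm and chr2:24845462-24845761 (minus strand) for Ckmt2.
Gatm: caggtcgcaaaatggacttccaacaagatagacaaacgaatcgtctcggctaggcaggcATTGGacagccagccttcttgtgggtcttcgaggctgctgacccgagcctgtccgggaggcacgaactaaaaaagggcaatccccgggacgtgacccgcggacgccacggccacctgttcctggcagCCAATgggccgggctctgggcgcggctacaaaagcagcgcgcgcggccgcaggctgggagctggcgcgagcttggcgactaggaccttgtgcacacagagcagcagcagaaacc
Ckb: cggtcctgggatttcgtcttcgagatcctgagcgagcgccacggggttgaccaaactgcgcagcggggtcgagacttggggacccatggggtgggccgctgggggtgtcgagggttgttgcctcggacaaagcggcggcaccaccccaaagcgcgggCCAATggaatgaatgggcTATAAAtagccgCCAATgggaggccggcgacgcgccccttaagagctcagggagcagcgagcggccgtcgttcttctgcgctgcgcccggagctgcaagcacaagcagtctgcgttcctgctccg
Ckm: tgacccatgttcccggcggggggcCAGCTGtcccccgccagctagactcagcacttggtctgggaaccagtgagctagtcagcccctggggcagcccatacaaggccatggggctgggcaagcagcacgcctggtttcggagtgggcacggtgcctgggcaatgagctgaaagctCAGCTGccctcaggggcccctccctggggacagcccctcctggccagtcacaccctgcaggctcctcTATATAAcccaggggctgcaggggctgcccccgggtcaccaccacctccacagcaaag
Ckmt2: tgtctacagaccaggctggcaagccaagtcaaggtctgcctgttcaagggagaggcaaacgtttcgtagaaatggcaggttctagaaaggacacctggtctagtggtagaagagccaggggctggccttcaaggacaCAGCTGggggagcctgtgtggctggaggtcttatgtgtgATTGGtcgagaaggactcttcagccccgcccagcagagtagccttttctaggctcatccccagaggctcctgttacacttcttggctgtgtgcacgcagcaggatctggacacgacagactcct

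Positions are counted from the start used for each window, which for Gatm and Ckm lies inside the annotated gene. Gatm had the CCAAT letters at positions -64 to -60 and, on the opposite strand, at -191 to -187. Ckb had CCAAT at -93 to -89 and -63 to -59 and TATAAA at -75 to -70. In the muscle pair, Ckm had CAGCTG, a form of the E-box CANNTG bound by myogenic factors, at -226 to -221 and -75 to -70 and TATATAA at -8 to -2, and Ckmt2 had CAGCTG at -113 to -108. Of 33469 rat promoter windows of the same 300 bases, 37.5% held the CCAAT letters. The letters TATAAA were in 14.2% of them and TATATAA in 3.9%. The E-box form CAGCTG was in 15.1%, and the wider pattern CANNTG, which includes every CAGCTG, in 72.1%. The nuclear receptor letters AGGTCA were in 0 of the 6 member windows and in 16.2% of all windows, and their tandem with 1 base between the copies, the form PPARgamma binds with RXR, was in 0.05% of all. The GC content of the member windows ran from 55.7% (Ckmt2) to 68.0% (Gamt), against a median of 51.7% over all windows. These are matches of letters in 1 window per gene.

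The values were MAS5 signals, a linear intensity scaled by the authors so that the trimmed mean of every array is the same, and array medians lay between 191 and 248. Tissue labels were checked against marker genes. Alb lay between 46676 and 106169 on liver arrays, Acta1, the skeletal muscle actin, between 40528 and 84900 on muscle arrays, and Cfd, the adipocyte protein adipsin, between 8419 and 16207 on adipose arrays, and in each case the other tissues lay below these ranges. Particular arrays stood apart and are named beside the results they touch: liver troglitazone array 3 (muscle transcripts), adipose AG035029 array 1 (sperm and epididymis transcripts), adipose rosiglitazone array 2 (Spp1, the osteopontin gene, at 4876 against 124 to 3174 elsewhere) and adipose lean arrays 2 and 3 (muscle transcripts). Differences were taken on log2(signal + 20), which understates changes of dim probe sets, and errors after ± are standard errors from limma unless an SD is named. An adjusted p is limma's p after Benjamini-Hochberg adjustment over all 9519 probe sets tested in a tissue, and a change counts as called below 0.05. Only 3 arrays per group limit the precision, and p-values measure the spread between pools.

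Gatm was the member that differed most between adipose groups. Its signal was 296, 254 and 342 with pioglitazone, 462, 237 and 305.0 with rosiglitazone, 436, 319 and 276 with troglitazone, and 315, 316 and 184 with AG035029, against 1184, 1357 and 1611 in untreated obese rats and 269.6, 226 and 258 in lean rats. The 3 untreated obese arrays stood above all others without overlap, the lowest of them at 2.57 times the highest ligand array. The ligand and lean arrays overlapped: 9 of the 12 ligand arrays lay above all lean arrays, 1 lay below all of them, and the ligand mean was 1.2 times the lean one. The difference of untreated obese from lean rats was 2.36 ± 0.23 (5.15-fold). The mean of the ligand groups differed from untreated obese rats by -2.11 ± 0.18 (0.232 times), and single ligands gave -2.14 (pioglitazone), -2.02 (rosiglitazone), -1.96 (troglitazone) and -2.29 (AG035029), each ± 0.23. These contrasts chose the gene. For all probe sets, 6.02% were called in adipose tissue for obese against lean and 20.6% for the ligand mean against untreated obese, with median differences of -0.02 and -0.05. In bulk tissue, fewer cells of a type and less RNA per cell cannot be told apart.

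**Figure D1:**
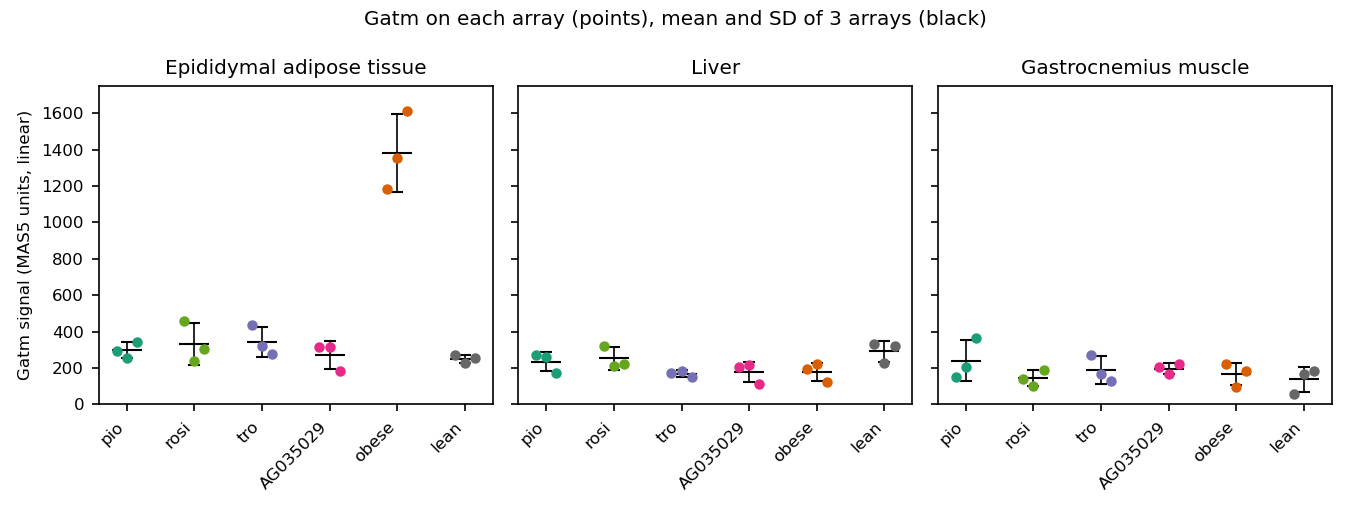
Gatm signal (linear axis, MAS5 units) on every array in adipose tissue, liver and muscle, by condition, with the mean and SD of 3 arrays in black. The 3 untreated obese adipose arrays, at 1184 to 1611, stand above every other array, which all lie at or below 462.

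Transcripts of other cell types moved in the same adipose arrays. The summed signal of 10 macrophage markers was 14999 to 31493 over the ligand arrays, 34921 to 36993 in untreated obese rats and 16578 to 20022 in lean rats, and 9 of the 10 markers had all untreated obese arrays above all lean arrays. None of the 10 was at 0 on every array. Over the 18 adipose arrays the log2 values of Gatm followed this sum at a Pearson r of 0.76, and at 0.35 over the 15 arrays that were not untreated obese. Rosiglitazone arrays 1 and 2 carried macrophage sums of 31493 and 30994 and Gatm signals of 462 and 237. The sum of array 2 includes its outlying Spp1 signal of 4876. Pancreatic acinar markers were also set beside Gatm, because the pancreas is a known site of this enzyme. Their sum was 622 to 1142 with ligands, 865 to 929 in untreated obese and 402 to 451 in lean rats. Gatm followed it at an r of 0.36, with and without the untreated obese arrays. Pioglitazone arrays lay at 872 to 1059.5, with Gatm at 254 to 342. Of 9 acinar markers 4 had a median under 50, among them Amy2a3, pancreatic amylase, at 1 to 13. Of the 9, 2 had all untreated obese arrays above all lean arrays, again without a count over all probe sets. One was Cela1, an elastase, at 142 to 528 with ligands, 447 to 509 in untreated obese and 21 to 27 in lean rats, which is most of the difference between the sums. The adipocyte sum was 50876 to 71619 with ligands, 43523 to 50609 in untreated obese and 47371 to 57926 in lean rats. Brown fat markers (5 measured) summed to 6758 to 10749.9 with ligands, 4298.0 to 4847 in untreated obese and 2352 to 2583 in lean rats. Nearly all of that was Cidea, a lipid droplet protein, at 6653 to 10056 with ligands, 4215 to 4686 in untreated obese and 2182 to 2409 in lean rats. Ucp1, the uncoupling protein that defines brown fat, was at 50.3 to 454 with ligands, 21.6 to 59.2 in untreated obese and 11.9 to 96.5 in lean rats. Hepatocyte markers (12 measured) summed to 4159 to 10637 with ligands, 1518 to 1952 in untreated obese and 2162 to 3525 in lean rats. Most of the ligand sum was Alb, serum albumin, and the lipoprotein gene Apoa1 was at 34.2 or less on every adipose array. Skeletal muscle fibre markers summed to 6955 to 9666 with ligands, 4697 to 6069.9 in untreated obese and 3829.6 to 7431 in lean rats. Most of that sum was Myh1, a fast myosin heavy chain, at 2555 to 8390.5 over the adipose arrays. The epididymis and testis sum was 2967 to 4034 in untreated obese and 5278 to 6082 in lean rats. The smooth muscle sum (4054 to 4496 in untreated obese, 4520.1 to 12057 in lean rats) and the erythroid sum (18565 to 20682 in untreated obese, 22215 to 24949 in lean rats) also did not overlap between those groups. What part these other transcripts had in the Gatm difference was not tested.

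**Figure D2:**
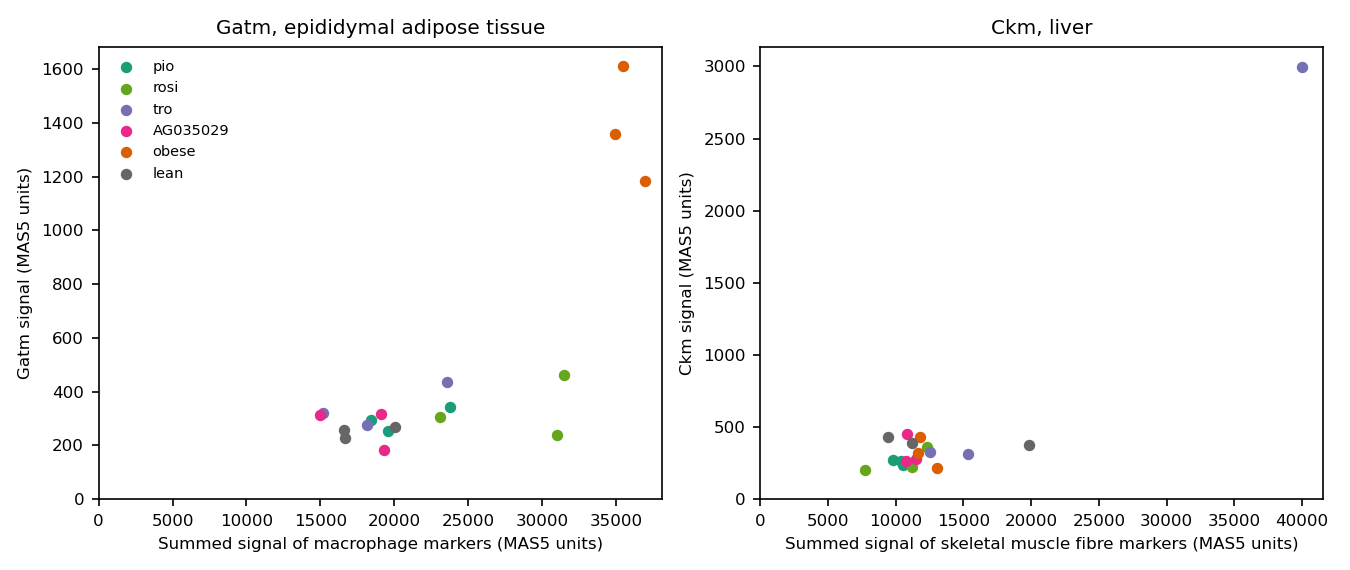
Left, Gatm signal against the summed signal of 10 macrophage markers on the 18 adipose arrays. Right, Ckm signal against the summed signal of 18 skeletal muscle fibre markers on the 18 liver arrays (linear axes, MAS5 units, 1 point per array, coloured by condition). The untreated obese arrays lie at macrophage sums of 34921 to 36993 with Gatm at 1184 to 1611. Rosiglitazone arrays 1 and 2 lie at 31493 and 30994 with Gatm at 462 and 237. Liver troglitazone array 3 lies alone at a muscle sum of 39976 with Ckm at 2995.

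Over the 18 adipose arrays, the genes whose log2 signals followed Gatm most closely were Lcp1 (Pearson r = 0.892), which encodes the leukocyte actin-bundling protein plastin 2, Cd68 (0.889), a lysosomal protein of macrophages, Slc48a1 (0.882), a haem transporter, and Irf8 (0.879), a transcription factor of myeloid cells. Cd68 averaged 1275 with ligands, 2291 in untreated obese and 901 in lean rats. The lowest r belonged to Mtarc2 (-0.851), a mitochondrial amidoxime-reducing enzyme, Slc25a35 (-0.819), a mitochondrial carrier, and Siae (-0.802), a sialic acid esterase. Mtarc2 averaged 3299.7 with ligands, 2061 in untreated obese and 3582 in lean rats. These are descriptions over 18 arrays out of 8128 probe sets compared, and the 3 obese arrays weigh heavily in each.

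Gamt, the methyltransferase of the pathway, did not share the Gatm pattern in adipose tissue. It gave 343, 388 and 368 with pioglitazone, 462, 513 and 336.5 with rosiglitazone, 387, 357 and 359 with troglitazone and 707, 408 and 369.7 with AG035029, against 543, 511 and 587 in untreated obese and 591, 571 and 645 in lean rats. Untreated obese and lean arrays overlapped, at a difference of -0.13 ± 0.19. Ligand arrays lay mostly lower, with 10 of 12 below all untreated obese arrays and 11 of 12 below all lean arrays, and a ligand mean of -0.41 ± 0.15 against untreated obese rats. Pioglitazone (-0.56 ± 0.19) and troglitazone (-0.55 ± 0.19) had all arrays below the untreated obese ones, whereas the rosiglitazone (-0.33 ± 0.19) and AG035029 (-0.19 ± 0.19) arrays overlapped them. The single high value of 707 came from AG035029 array 1, on which 6 of 7 epididymis and testis markers exceeded all 17 other adipose arrays. Among them the epididymal gene Adam7 was at 1362 against at most 176, and the sperm protamine Prm1 at 1685 against at most 357. The epididymis and testis sum also moved with Gamt over the groups, at 5529 on that array and 1184 to 2899 on the other 11 ligand arrays, against 2967 to 4034 in untreated obese and 5278 to 6082 in lean rats. Over the 18 adipose arrays the log2 values of Gamt followed this sum at a Pearson r of 0.94. Over the 15 arrays that were not untreated obese the r was 0.95. Most of the untreated obese and lean sums was Clu, clusterin, a secreted protein also made outside the epididymis, at 914.5 to 2309 with ligands, 2521 to 3283 in untreated obese and 5058 to 5977 in lean rats. The part of these transcripts in the Gamt values was not tested. Without that array, rosiglitazone array 2 and liver troglitazone array 3, the ligand mean of Gamt was -0.51.

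Ckb, the cytosolic brain-type kinase, had its highest adipose group mean in untreated obese rats, with uneven replicates. It gave 517, 488 and 524 with pioglitazone, 640.1, 1661 and 637 with rosiglitazone, 722, 690.1 and 506 with troglitazone and 712, 574 and 440.1 with AG035029, against 1709, 882 and 882 in untreated obese and 692, 659 and 541 in lean rats. All untreated obese arrays lay above all lean arrays, and 11 of 12 ligand arrays lay below all untreated obese ones, with rosiglitazone array 2 as the exception. The fitted differences were 0.79 ± 0.30 for untreated obese against lean and -0.78 ± 0.24 for the ligand mean against untreated obese, and the ligand mean was 1.01 times the lean one. Single arrays moved these values: without untreated obese array 1 they were 0.48 and -0.47. Rosiglitazone alone gave -0.32 ± 0.30, which was -0.77 without its array 2 and -0.002 without untreated obese array 1. Pioglitazone gave -1.08, troglitazone -0.78 and AG035029 -0.94, each ± 0.30. The genes most like Ckb over the 18 adipose arrays were Terf2ip (r = 0.92), a telomere-binding protein, Tnfaip2 (0.893), a protein induced by tumour necrosis factor, Cryz (0.88), a quinone reductase, and Lcn2 (0.875), the lipocalin of neutrophils and inflamed tissue. Lcn2 averaged 559 with ligands, 1437 in untreated obese and 350.3 in lean rats.

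The muscle-type kinases were low in adipose tissue. Ckm lay between 149 and 259 on the 12 ligand arrays and at 199.5, 208 and 173 in untreated obese rats, against 183, 580.4 and 450.4 in lean rats. Lean arrays 2 and 3 were thus the high ones, and lean array 1 lay inside the range of the other groups. The difference of untreated obese from lean rats was -0.86 ± 0.28, which became -0.54 without lean array 2 and -1.32 without lean array 1. On lean array 2, 8 of 18 skeletal muscle fibre markers exceeded all other adipose arrays, and 2 did so on lean array 3. Others were not raised on lean array 2, among them Mb at 5.0 and Myh1 at 3866, against medians of 7.6 and 6560 elsewhere. Over the 18 adipose arrays Ckm followed the summed muscle fibre markers at a Pearson r of 0.01 and the smooth muscle sum at 0.53. Most of the muscle fibre sum was Myh1, at 3866 and 3564 on lean arrays 2 and 3. The r of 0.01 therefore rests mainly on 1 marker and does not speak for the others. Acta1 was at 55, 785 and 658 on the lean arrays, and its part in the Ckm values was not tested. The ligand mean of Ckm differed from untreated obese rats by 0.01 ± 0.23. Ckmt2 did not pass the filter on low values in adipose tissue, where its signal ran from 6.1 to 88.8 over all groups.

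Slc6a8, which carries creatine into cells, was read by 2 probe sets that disagreed. The probe set with the higher mean over all arrays gave 933 to 1474 over the ligand arrays, 1475, 1151 and 959.7 in untreated obese and 1203, 1375 and 1311 in lean rats, and all groups overlapped. Its differences were -0.14 ± 0.17 for untreated obese against lean and 0.07 ± 0.14 for the ligand mean. The second probe set gave 324 to 618.5 over the ligand arrays, 533, 538 and 416 in untreated obese rats and 289.9, 398 and 284 in lean rats. The untreated obese arrays lay above the lean ones without overlap, a difference of 0.59 ± 0.20, and the ligand arrays overlapped both, with a ligand mean of -0.14 ± 0.16 against untreated obese rats. Which of the probe sets follows the transcript was not tested. The genes most like the first probe set were Tapbp (r = 0.724), Adarb2 (0.722), Lmf2 (0.694) and Sike1 (0.68) over 18 adipose arrays.

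**Figure D3:**
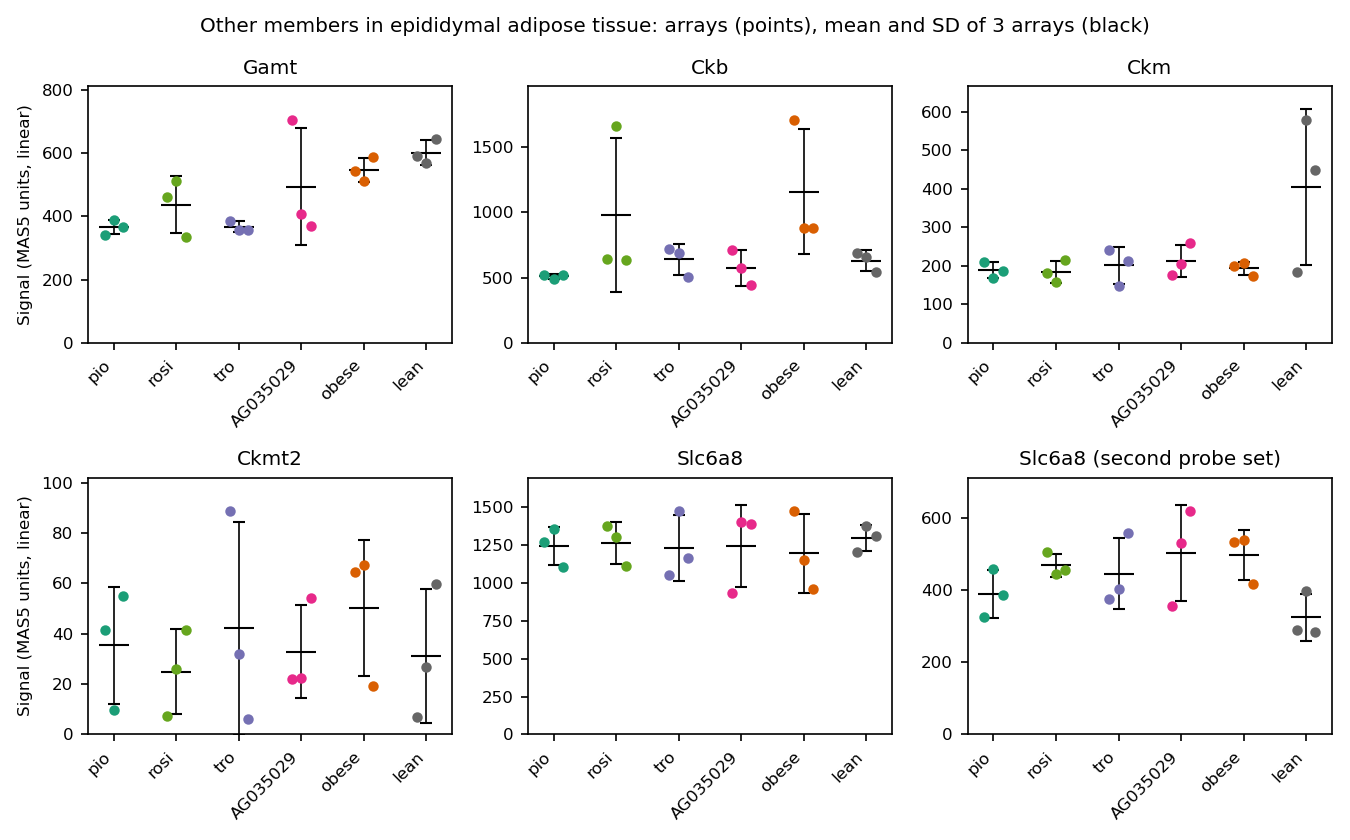
Signals (linear axes from 0, MAS5 units) of the other 6 member probe sets on every adipose array by condition, with the mean and SD of 3 arrays in black. Ckb shows single high arrays at 1661 (rosiglitazone) and 1709 (untreated obese), Gamt a single high AG035029 array at 707, Ckm high lean arrays at 580.4 and 450.4, and Ckmt2 stays below 89 throughout.

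Differences among the ligands were tested in every tissue. The choice of the genes did not compare ligands with each other. It did rest on low adipose Gatm with ligands, so the adipose Gatm values entered it. The tests compare the groups as labelled, since doses and times are not given. In adipose tissue limma's F-test over the 4 ligand groups called 0 of 6 member probe sets, against 3 of 9519 in all (0.0315%), and the 6 pairwise differences called 0 of 36 for members, against 0.0105% of all, with 1 of the 36 at an unadjusted p under 0.05. That one was Ckb, with pioglitazone minus rosiglitazone at -0.77 ± 0.30 (adjusted p = 0.755). For Gatm the pairs differed by -0.18 to 0.33, with 95% intervals reaching from -0.66 to 0.81 and adjusted p of 0.71 to 0.975. The ligand groups were not told apart by their adipose Gatm signal, and the intervals leave room for differences up to those bounds. Choosing the gene for low signals with ligands favours ligand groups that lie close together, so for Gatm this is a description.

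In liver, Gamt was the bright member. It gave 8248, 6923 and 8267 with pioglitazone, 6832, 3949 and 6385 with rosiglitazone, 7130.0, 6515 and 6299 with troglitazone and 7821, 7084 and 6844 with AG035029, against 8473, 9480.0 and 7083 in untreated obese and 7033, 7148 and 7209 in lean rats. The rosiglitazone arrays lay below all untreated obese arrays, at -0.57 ± 0.18 (adjusted p = 0.243), and moved to -0.33 without rosiglitazone array 2, its lowest. The ligand mean was -0.29 ± 0.14 (adjusted p = 0.458), and untreated obese against lean was 0.22 ± 0.17 (adjusted p = 0.768). No Gamt difference in liver passed the test. The genes most like it over the 18 liver arrays were Pik3r1 (r = 0.844), a regulatory subunit of phosphatidylinositol 3-kinase, Pemt (0.839), which methylates phosphatidylethanolamine with the same methyl donor, Eif2ak2 (0.834) and Taf10 (0.828). Pemt averaged 3179.5 with ligands, 4682 in untreated obese and 4224 in lean rats.

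Gatm in liver ran the other way from adipose tissue, without passing the test. It gave 115 to 324 over the ligand arrays, 194, 221 and 122 in untreated obese rats and 330.5, 226 and 321 in lean rats. All untreated obese arrays lay below all lean arrays, a difference of -0.67 ± 0.32 (adjusted p = 0.504). The ligand arrays overlapped the untreated obese ones, with a mean difference of 0.20 ± 0.25 (adjusted p = 0.843). The genes most like Gatm here were Birc2 (r = 0.749), C4bpb (0.741), Spcs2 (0.73) and Ssr3 (0.725) over 18 arrays, and none of them was among the genes most like it in adipose tissue. Slc6a8 was dim in liver, at 151 to 304 with ligands, 149.6 to 219 in untreated obese and 244 to 312 in lean rats. Its untreated obese arrays lay below all lean arrays, at -0.44 ± 0.29 (adjusted p = 0.679), and its ligand mean was 0.05 ± 0.23 (adjusted p = 0.969).

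Ckm in liver rested on 1 array. Troglitazone gave 324, 312 and 2995 and the other ligand arrays lay between 203.5 and 450.0, against 429, 217 and 319.7 in untreated obese rats and 434, 372 and 390.1 in lean rats. Troglitazone differed from untreated obese rats by 1.09 ± 0.53 (adjusted p = 0.520), and by 0.03 (adjusted p = 0.996) without its array 3. On that array 12 of 18 skeletal muscle fibre markers exceeded all 17 other liver arrays. Acta1 was at 13627 against at most 316, Mb, muscle myoglobin, at 1380.2 against at most 83.3, and the summed marker signal was 39976 against 7699 to 19827. Most of the sum on the other liver arrays was Myh1, at 6546 to 17541, which was at 9138.5 on array 3. Ckmt2 was at 424 there and between 9.7 and 176 on the other liver arrays. It did not pass the filter in liver, nor did Ckb (24.8 to 241) or the second Slc6a8 probe set (12.5 to 263).

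No member was called in liver in any contrast. Over the 4 member probe sets tested, limma called 0 for untreated obese against lean (1 at an unadjusted p under 0.05), against 0.672% of all probe sets. For the ligand mean it called 0 (1 unadjusted), against 0.494% of all. For single ligands it called 0 with pioglitazone, rosiglitazone, troglitazone and AG035029 (0, 1, 0 and 0 unadjusted), against 0.021%, 0.063%, 0.662% and 0.2% of all. Backgrounds this low leave little to read from a count of 0 among 4. Differences among ligands gave 0 calls by the F-test (0.0105% of all) and 0 of 24 pairwise (0.00525% of all), with 4 pairs at an unadjusted p under 0.05. Of these, 2 were Gamt, with pioglitazone minus rosiglitazone at 0.48 ± 0.18 and rosiglitazone minus AG035029 at -0.38 ± 0.18 (adjusted p = 0.827 and 0.660), and 2 were Ckm against troglitazone.

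Muscle held the bright signals of the muscle-type kinases. Ckm gave 66664, 82675 and 43420.0 with pioglitazone, 56739, 114450.0 and 85574 with rosiglitazone, 72056, 85054 and 87872 with troglitazone and 92518, 52740.0 and 68832 with AG035029, against 56396, 68344 and 67193 in untreated obese and 80538, 86056 and 65957 in lean rats. All troglitazone arrays lay above all untreated obese arrays, at 0.35 ± 0.26 (adjusted p = 0.704), and the other ligand groups overlapped them. Ckmt2 ranged from 13809 to 35108 with ligands, 14072 to 28549 in untreated obese and 16675 to 26730.0 in lean rats, so its groups overlapped throughout. Obese against lean was -0.27 ± 0.26 for Ckm and 0.09 ± 0.30 for Ckmt2 (adjusted p = 0.997 each), and the ligand means were 0.20 ± 0.20 and 0.02 ± 0.24 (adjusted p = 0.902 and 0.990). The genes most like Ckm over the 18 muscle arrays were Aldoa (r = 0.915), the glycolytic aldolase of muscle, Acta1 (0.882), COX2 (0.88), a subunit of cytochrome c oxidase, and Slc25a4 (0.876), the ADP/ATP carrier of muscle mitochondria. Those most like Ckmt2 were mrpl24 (0.904), a mitochondrial ribosomal protein, Sdhb (0.893), a subunit of succinate dehydrogenase, Myh1 (0.88), a fast myosin heavy chain, and Hccs (0.865), which attaches haem to cytochrome c.

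Gamt in muscle was lowest with troglitazone. It gave 1281, 1225 and 942 with pioglitazone, 718, 1018 and 1003 with rosiglitazone, 574, 657 and 866 with troglitazone and 1180.0, 1124 and 877.5 with AG035029, against 966, 1042 and 1158 in untreated obese and 1014, 1230.0 and 1196 in lean rats. The troglitazone arrays lay below all untreated obese arrays, at -0.60 ± 0.19 (adjusted p = 0.203). They lay below all pioglitazone arrays too, with pioglitazone higher by 0.71 ± 0.19 (adjusted p = 0.363). Neither passed the test, and over leaving out single arrays and the other alternatives the troglitazone value stayed between -0.76 and -0.47, with adjusted p of 0.0693 to 0.507. Gatm was dim in muscle, at 102 to 367 with ligands, 98.5 to 220.5 in untreated obese and 60.1 to 187 in lean rats, with differences of 0.30 ± 0.42 for untreated obese against lean (adjusted p = 0.997) and 0.18 ± 0.34 for the ligand mean (adjusted p = 0.952).

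Ckb in muscle overlapped in all groups, at 124 to 359 with ligands, 168 to 243 in untreated obese and 206 to 386 in lean rats. The first Slc6a8 probe set gave 1051 to 2380.0 with ligands, 1620.0 to 1902 in untreated obese and 1613 to 2280.0 in lean rats. For the second, 9 of 12 ligand arrays lay below all untreated obese arrays, at 249 to 539 with ligands against 653, 508 and 456 in untreated obese rats, a ligand mean of -0.49 ± 0.22 (adjusted p = 0.673), while the first gave -0.12 ± 0.16 (adjusted p = 0.932). The adipocyte marker sum in muscle was 11260 to 38151 with ligands, 5116 to 7989 in untreated obese and 4454 to 5223 in lean rats. It moved with the ligands in the same arrays, and its part in the muscle values was not tested.

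All 7 member probe sets were tested in muscle, and limma called 0 in each contrast. For untreated obese against lean 0 were called (0 at an unadjusted p under 0.05), against 0.021% of all probe sets, and for the ligand mean 0 (1 unadjusted), against 0.242% of all. With pioglitazone, rosiglitazone, troglitazone and AG035029 the counts were 0 (0, 0, 1 and 1 unadjusted), against 0.231%, 0.0315%, 0.704% and 0.116% of all. Differences among ligands gave 0 member calls by the F-test (0% of all, with 921 probe sets at an unadjusted p under 0.05) and 0 of 42 pairwise (0.00875% of all, 4 of the 42 unadjusted). The smallest F-test p among members was that of Gamt (adjusted p = 0.298).

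**Figure D4:**
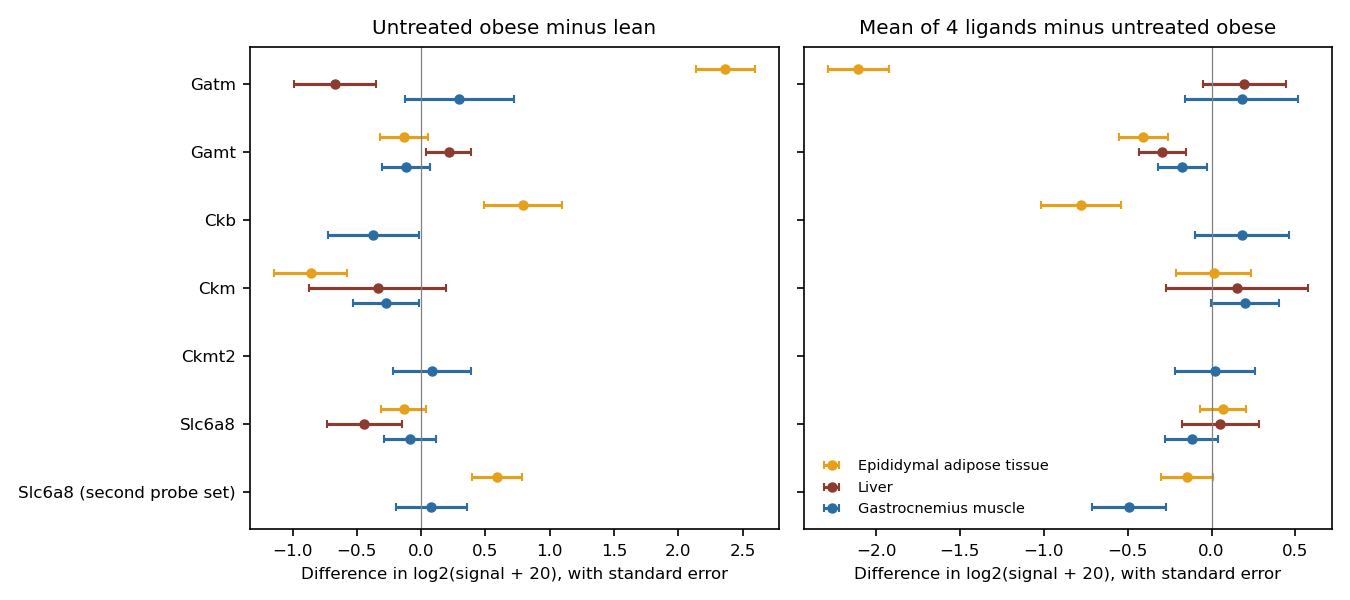
Differences on the log2(signal + 20) scale, with standard errors, of each member probe set that passed the filter, for untreated obese minus lean (left) and the mean of 4 ligands minus untreated obese (right), in 3 tissues. Adipose Gatm lies apart at 2.36 and -2.11, and the liver and muscle values lie between -0.67 and 0.30.

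Effects in liver and muscle were also compared with each other in a joint fit of all 54 arrays and 11520 probe sets. The obese effect minus that in muscle was -0.97 ± 0.46 for Gatm in liver (adjusted p = 0.525), with an interval of -1.90 to -0.03. Limma called 0 of 7 members for a liver effect of obesity that differed from that in muscle (1 at an unadjusted p under 0.05), against 0.33% of all. Of the 7, 3 (Ckb, Ckmt2 and the second Slc6a8 probe set) passed the filter in muscle and not in liver. For the ligand mean it called 0 of 7 (0 unadjusted), against 0.859% of all.

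Between lean tissues the members divided by organ. In the joint fit 10 of 12 comparisons passed the test, counting those in which the probe set passed the filter in both tissues and leaving out lean adipose Gatm, whose values entered the choice of the genes. Of all 11520 probe sets in the joint fit, 54.4% passed the test between lean adipose tissue and lean liver. The share was 56.5% between lean adipose tissue and lean muscle, and 54.7% between lean muscle and lean liver. These shares include probe sets that passed the filter in only some of the tissues. They are therefore not a matched background for the 10 of 12. Ckm averaged 77517 ± 10384 in lean muscle (SD, n = 3), against 398.5 ± 31.9 in lean liver, a difference of 7.53 ± 0.42 (adjusted p = 3.37e-20). Lean adipose tissue differed from lean muscle in Ckm by -7.64 ± 0.42 (adjusted p = 7.1e-20). Ckmt2 averaged 20479 ± 5456 in lean muscle, against 92.4 ± 15.4 in lean liver and under 89 on every adipose array. It entered the joint fit through muscle alone, so its differences are given without a test, and their size hangs on the pseudocount: adipose tissue minus muscle was -8.75 with 20 added, -9.43 with 5 and -7.53 with 80. On this scale Ckm in lean muscle was 184 times its level in lean liver.

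Gamt had the opposite distribution. It averaged 602 ± 39 in lean adipose tissue and 1146.5 ± 116 in lean muscle, against 7130.4 ± 89 in lean liver (SD, n = 3). The differences were -3.52 ± 0.18 for adipose tissue and -2.62 ± 0.18 for muscle against liver, and -0.90 ± 0.18 for adipose tissue against muscle, all called (adjusted p = 5.56e-21, 1.1e-16 and 5.07e-05). In every condition liver Gamt arrays lay above all muscle and adipose arrays. Ckb was brightest in adipose tissue: 631 ± 79 in lean adipose tissue, against 270.4 ± 100.2 in lean muscle, a difference of 1.21 ± 0.48 (adjusted p = 0.0298). This call was lost in 6 of 18 alternatives, with adjusted p up to 0.0984. In lean liver Ckb averaged 141 ± 83 and did not pass the filter, so its liver values are a description.

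Slc6a8 was lowest in liver. It averaged 1296 ± 87 in lean adipose tissue and 1882 ± 352 in lean muscle, against 267 ± 38 in lean liver, with differences of 2.20 ± 0.21 (adjusted p = 2e-12) and 2.72 ± 0.21 (adjusted p = 1.84e-15), while adipose tissue against muscle was -0.52 ± 0.21 (adjusted p = 0.0311), lost in 3 of 18 alternatives. The second probe set did not pass the filter in liver, and its differences of 0.78 for adipose tissue and 1.40 for muscle against liver are given without a test. Gatm in lean rats averaged 251 ± 22 in adipose tissue and 138 ± 68 in muscle, against 292.5 ± 58 in liver. Muscle differed from liver by -1.08 ± 0.33 (adjusted p = 0.00463). That call rested on lean muscle array 1, at 60.1: without it the difference was -0.65 (adjusted p = 0.108). Lean adipose Gatm entered the choice of the genes, so its differences of -0.19 from liver and 0.89 from muscle are a description, the last being 0.46 without that muscle array.

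**Figure D5:**
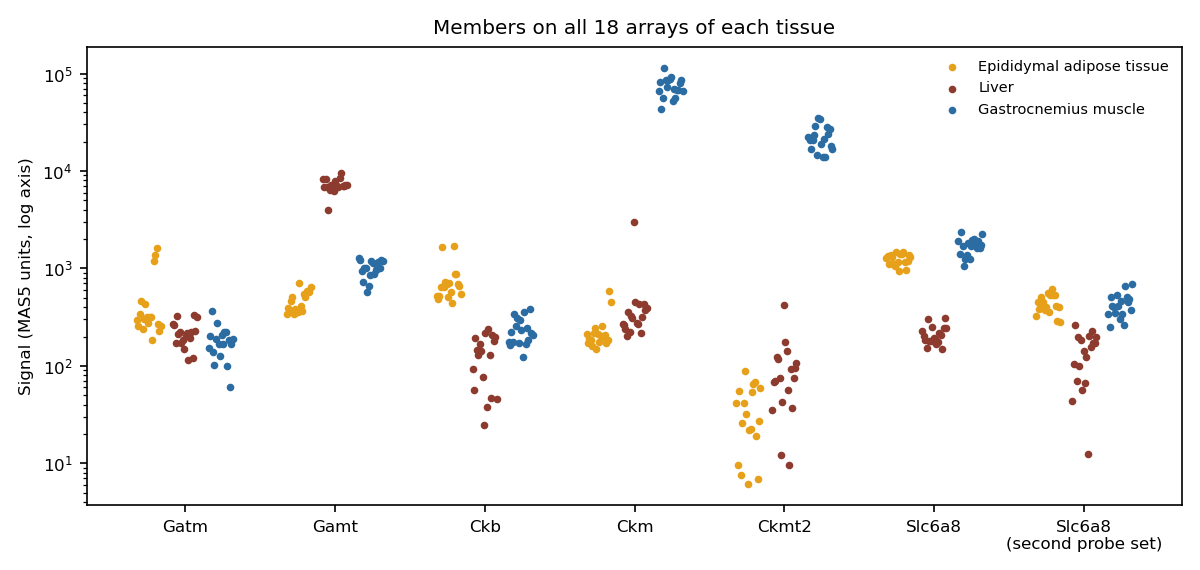
Signal (log axis, MAS5 units) of the 7 member probe sets on all 18 arrays of each tissue, 1 point per array. Ckm and Ckmt2 stand apart in muscle, Gamt in liver, and the 3 high adipose points of Gatm at 1184 to 1611 are the untreated obese arrays.

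Ordered over all 18 groups of tissue and condition, Gatm had its highest level in untreated obese adipose tissue, with a gap of 1.96 on the log2 scale to the next group, adipose tissue with troglitazone, where the pooled SD of both groups was 0.28. These adipose values chose the gene, so that gap is a description and no measure of evidence. Each of the other groups differed from its neighbour in that order by less than their pooled SD. For Gamt the 6 liver groups came first, led by untreated obese rats, then the 6 muscle groups and then the 6 adipose groups, and for Ckb the 6 adipose groups came first, then muscle, then liver. Of the 17 steps in each order, 5 exceeded the pooled SD for Gamt, 2 for Ckb, 1 each for Ckm and Ckmt2 (between muscle and the other tissues) and 3 for the first Slc6a8 probe set.

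Genes around the pathway were examined as lists. In adipose tissue, 9 of 17 other genes of phosphate transfer were tested. For untreated obese against lean, 1 rose and 0 fell (6.02% of all probe sets were called): Ak3, a mitochondrial adenylate kinase, by 0.58 ± 0.12 (adjusted p = 0.00661). The list median was 0.11, against -0.02 over all. For the ligand mean, 3 rose and 0 fell (20.6% of all were called): Slc25a5, an ADP/ATP carrier, at a mean of 11147 with ligands against 6924 in untreated obese rats (0.68 ± 0.10, adjusted p = 8.56e-05), Slc25a4 (0.26 ± 0.07, adjusted p = 0.0139) and Ak3 (0.30 ± 0.10, adjusted p = 0.0324). The median was 0.25, against -0.05 over all. Ak3 averaged 2549 with ligands, 2063.5 in untreated obese and 1369.5 in lean rats.

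No gene of precursor supply passed the test in adipose tissue. Of 10 genes of arginine, glycine and ornithine supply and 7 of the methyl-group cycle, limma called 0 in either contrast (1 each at an unadjusted p under 0.05), with list medians of 0.04 and -0.17 (supply, for obese against lean and for the ligand mean) and 0.13 and -0.25 (methyl-group cycle). Of all probe sets, 6.02% were called for obese against lean and 20.6% for the ligand mean. Oat, ornithine aminotransferase, which uses the ornithine that Gatm releases, averaged 948 with ligands against 1302 in untreated obese rats (-0.49 ± 0.18, adjusted p = 0.0573). Of 3 other carriers tested, Slc6a6, the taurine transporter and a relative of Slc6a8, fell with ligands, at a mean of 493 against 786 in untreated obese rats (-0.67 ± 0.12, adjusted p = 0.000775), and 0 were called for obese against lean (2 unadjusted).

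In liver, the called list member was Asl, argininosuccinate lyase, the urea-cycle enzyme that releases arginine, among 15 supply genes tested. It averaged 4676 with ligands, against 2398 in untreated obese rats, and rose by 0.94 ± 0.15 (adjusted p = 0.0041, with 0.494% of all probe sets called). Obese against lean gave -0.54 ± 0.19 for Asl (adjusted p = 0.28). The list medians were 0.00 for ligands and 0.01 for obese against lean. In the methyl-group cycle (12 tested, 0 called in either contrast, 3 unadjusted for obese against lean and 5 for ligands), Bhmt, betaine-homocysteine methyltransferase, averaged 17690.2 in untreated obese rats against 8285 in lean rats (1.10 ± 0.30, adjusted p = 0.115). Phosphate-transfer genes (11 tested) and other carriers (4 tested) had 0 calls in liver, with 1 of each unadjusted for obese against lean, and 1 and 0 for ligands. Of all probe sets in liver, 0.672% were called for obese against lean. In muscle, 0 of 26 list genes were called for obese against lean or for the ligand mean, with 1 unadjusted in each: Slc6a6 (0.52 ± 0.20, adjusted p = 0.95) and Slc25a5 (0.56 ± 0.21, adjusted p = 0.56). Of all probe sets in muscle, 0.021% and 0.242% were called in these contrasts, so the counts of 0 say little about the lists.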

How the data were processed

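Transcripts were measured on Affymetrix Rat Expression Set 230A arrays. The deposited values are MAS5 signals, linear intensities that the authors scaled before deposit; the submitters' processing notes name MAS5 and no version. The trimmed mean (2% off each end) was 500.1 to 500.2 on every array, and nothing was rescaled. Of 15923 probe sets 57 were controls. Of the rest, 12783 had 1 gene symbol, 312 several and 2771 none, and 12748 of those with 1 matched the RefSeq gene table by Entrez identifier.

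Signals were analysed as log2(signal + 20) with limma 3.58.1 (R 4.3.3). Probe sets whose mean lay under the 40th percentile of a tissue were not tested there. The models had group as the only term, 1 fit of 18 arrays per tissue, and a joint fit of 54 arrays for tissue comparisons. The fits were tested on simulated data. Figures used Python 3.11.15 and matplotlib 3.10.9. Named genes are all member probe sets, at most 4 called members of each list by smallest adjusted p, and the 4 genes with the highest Pearson r to a member (for adipose Gatm also the 3 with the lowest). Other uncalled list genes are given by counts, and Oat, Bhmt, Slc6a6 and Slc25a5 in muscle, Asl for obese against lean and the markers named singly were picked after their values were seen. The members and lists were chosen with earlier results of these data known. Alternatives were pseudocounts of 5 and 80, other filters, quantile normalization, median centring, no variance trend, array weights, a replicate block, fits of only the compared arrays, a scale common to tissues, and each array left out in turn. Leaving out 3 arrays that stood apart was added after seeing the data. Raw image files were not used here.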

Additional observations from a re-analysis of the deposited data

Results flagged for a closer look

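The Gatm arrays of untreated obese and lean rats separated in opposite directions in adipose tissue and liver. In adipose tissue all untreated obese arrays lay above all lean arrays, at 2.36 on the log2(signal + 20) scale, and in liver all untreated obese arrays lay below all lean arrays, at -0.67. The difference between these tissues was not tested, because the adipose contrast chose the gene, and the liver difference alone did not pass limma's test (adjusted p = 0.504). Without untreated obese array 3 the liver difference was -0.44. How many of all probe sets separate this way with 3 arrays against 3 was not counted, so the opposite directions are a description.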

How the results depend on the processing

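Of 867 values and counts recomputed under the alternatives, 853 kept their direction and side of the threshold (counts, within 1.5 times), 13 kept direction but lost the threshold, and 1, among values given without a test, moved by more than the replicate spread. Tested values were judged by direction and threshold alone, and their size could move further: Gamt for lean adipose tissue against liver ran from -3.85 to -3.40. Ckm with troglitazone against untreated obese rats in liver ran from 0.03 to 1.62. Among values without a test, Ckb with rosiglitazone in adipose tissue ran from -0.77 to -0.002, within its wide replicate spread. Both count among those that kept, so that count does not speak for stable sizes. The value without a test that moved was adipose Gatm for obese against lean, at 2.13 with a pseudocount of 80, within a range of 2.13 to 2.47 over all alternatives. The lost calls were all between lean tissues: Gatm for adipose tissue against muscle (3 of 18 alternatives, a comparison given here as a description) and muscle against liver (1, adjusted p = 0.108), Ckb for adipose tissue against muscle (6, up to 0.0984) and Slc6a8 for adipose tissue against muscle (3, up to 0.171). Signals are tied to a common trimmed mean, so levels across tissues rest on that scaling. On a scale common to the tissues, lean adipose tissue against muscle was 0.65 for Gatm and 0.97 for Ckb (adjusted p = 0.0807).

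Replicate numbers showed no pairing in the residuals: arrays of different conditions with the same number correlated on average at 0.018 (adipose tissue), 0.003 (liver) and 0.012 (muscle). Between tissues, arrays of the same condition and number correlated on average at 0.006. Such averages cannot tell whether tissues came from the same rats. With the number as a replicate block the adipose Gatm differences were 2.36 and -2.11, and members called between lean tissues numbered 16 of 21, against 15 without it. The 21 include lean adipose Gatm and probe sets that passed the filter through the brighter tissue alone, so the count is a description. It ran from 12 (without lean adipose array 1) to 17 (only the 9 lean arrays fitted). Of all 11520 probe sets in the joint fit, 54.4% to 56.5% were called between lean tissues. The 10 of 12 given above was not recounted under the alternatives. Having 3 arrays per group and pools in place of single rats limits what the tests could detect. So do dim signals, of Gatm in liver and muscle and of Ckb and Ckmt2 outside their bright tissues. No count of called members in liver or muscle left 0 under any alternative.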
